A study of Mus musculus with 30 samples.

Results

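The genes described here code for splicing factors: the Sm, U1 and U2 proteins (Snrp, Sf3a, Sf3b and U2af symbols), the PRP factors, the LSm proteins, the SR proteins (Srsf symbols) and the hnRNP proteins. They were chosen by symbol alone, as protein-coding genes whose name begins with Snrp, Sf3a, Sf3b, Srsf, Prpf, Hnrnp, Lsm or U2af, with a number where the family uses one. The rule therefore also takes in genes that work elsewhere, such as some LSm genes. Of 55487 genes in the count table, 81 met this rule, and 5 processed pseudogenes with such names were left out because they are not protein-coding. RNA-sequencing was from C2C12 cells, a mouse myoblast line, that had fused into myotubes in low glucose medium with 2% horse serum for 4 days. For 4 more days the myotubes stayed in 2% horse serum (2% HS) or had no serum (SD), and serum-deprived myotubes received 100 nM metformin (MET), 500 nM leucine (LEU) or both (MET+LEU), so that the total was 8 days. Each of the 5 groups had 6 libraries, all groups came from the same wild-type line, and 3 of them (MET, LEU and MET+LEU) shared the serum-free medium of SD. The sources used here do not say whether replicates were separate cultures or days, so a p-value measures the spread between these libraries.

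Splicing removes introns from pre-mRNA in the nucleus. Small nuclear ribonucleoproteins (snRNPs) do this work: U1 binds the start of the intron, U2 binds the branch point with the help of U2AF, and the U4/U6.U5 tri-snRNP then joins before catalysis. Sm proteins form a ring on most of the small nuclear RNAs and some of the LSm proteins form the corresponding ring on U6. SR proteins in general favour the use of the exons they bind, hnRNP proteins often oppose it or package the transcript, and differentiating muscle is a tissue rich in alternative exons.

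Libraries held between 12784960 and 19604103 counts, of which between 97566 and 148470 fell on the 81 splicing factor genes. Of these genes 80 passed a filter on low counts and were tested, each with at least 1174 counts over the 30 libraries. Srsf12, an SR protein gene, failed the filter with 4 counts in total, found in 2 libraries and reaching at most 2 counts in 1 library. Levels are given in CPM, counts scaled to the size of the library, after normalization between libraries by the trimmed mean of M values (TMM). As a check of the labelled cell type, all 12 myotube markers were tested and summed to between 30753 and 44442 CPM in every library, whereas 1 of 4 endothelial or immune markers passed the filter and that list did not exceed 4.12 CPM. Fibroblast or fat cell markers, of which 4 of 6 were tested, summed to between 28.1 and 38.2 CPM in 2% HS and to between 88.0 and 101 CPM in SD. MET+LEU replicate 6 stood apart in its composition: 5.85% of its counts were nuclear ribosomal RNA and 7.64% mitochondrial ribosomal RNA, against at most 1.96% and 0.760% in the other libraries, and its TMM factor was 0.803 against 0.968 to 1.03. Most counts of genes called, and most of the larger changes in MET+LEU vs. SD, are given with and without it. In bulk RNA a change in the share of a cell type and a change in RNA per cell cannot be told apart.

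The splicing factor genes differed widely in level. Per kilobase of exon, the mean level over all libraries ran from 1.52 CPM in U2af1l4, a U2AF small subunit relative, to 80.4 CPM in Hnrnpab, a range of 53.0-fold with a median of 13.99 CPM per kilobase among the 80 genes tested. In the other roles the highest levels per kilobase were 55.4 CPM in Srsf5 among SR proteins, 54.4 CPM in Prpf8, the large scaffold of the catalytic centre, among tri-snRNP and PRP factors, 42.1 CPM in Lsm12 among LSm proteins and 32.3 CPM in Snrpb among Sm proteins. Sf3b1, the branch point scaffold of U2, stood at 30.4 CPM, U2af2, which binds the polypyrimidine tract, at 26 CPM and Snrpa, a U1 protein, at 15.4 CPM per kilobase. No single gene dominated, as the gene with the largest share held 5.99% of the summed CPM and the highest 5 together held 24.6%.

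Most splicing factor genes were not called in serum-deprived myotubes, and those called differed by small amounts. In SD vs. 2% HS, 14 of the 80 genes were higher and 3 lower at an adjusted p under 0.05 (edgeR quasi-likelihood fit, adjusted by Benjamini-Hochberg across the 15907 genes that passed the filter), and the share of all genes called was 13.9% higher and 13.9% lower. The share of splicing factor genes called higher, 17.5%, was thus close to the background, while 3.75% were lower. Their median log2 fold change was 0.06 against 0.00 over all genes, and the extremes were -0.18 and 0.32. Myotube markers also differed, since 5 of 12 fell and 1 rose and their summed level was 41543 to 44442 CPM in 2% HS and 34111 to 36657 CPM in SD, and all 4 tested fibroblast or fat cell markers rose. The part of these cell type markers in the result was not tested.

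**Figure D1:**
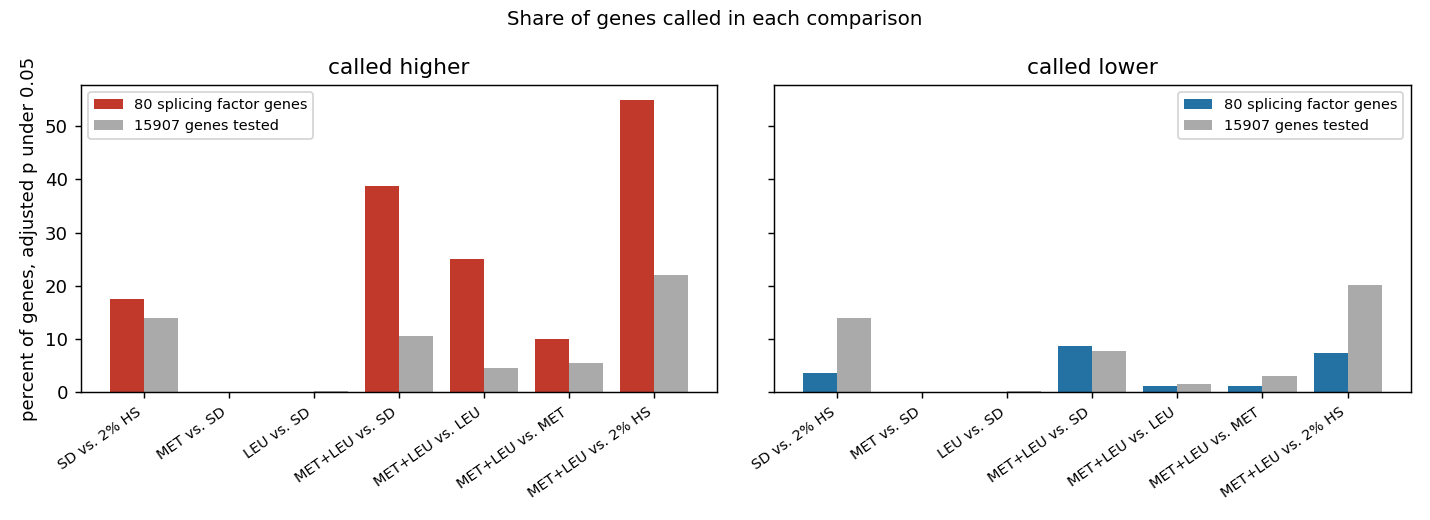
Share of genes called higher (left) or lower (right) in each comparison, in percent, for the 80 splicing factor genes (coloured bars) and all 15907 genes tested (grey bars). In MET+LEU vs. SD the bars for higher genes stand at 38.8% and 10.6%, and in SD vs. 2% HS at 17.5% and 13.9%.

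The calls in SD were spread over several roles. Among 8 Sm ring genes, 3 rose (Snrpd1, Snrpd3 and Snrpe), and the log2 fold changes of all 8 lay between 0.12 and 0.32. Among 11 U2 genes, 4 rose (Sf3b3, Sf3b4, Sf3b5 and Sf3b6) and 1 fell (Sf3b1), so that the subunits of the SF3B complex, which holds the branch point, did not move one way. Prpf31 and Prpf3, proteins of the U4/U6 particle, and Prpf6, which bridges U5 to U4/U6, rose among 10 tri-snRNP and PRP genes. Of 20 hnRNP genes 3 rose (Hnrnpa3, Hnrnpul2 and Hnrnpc), of 13 LSm genes 1 rose (Lsm6, part of the U6 ring), and of 10 SR genes none rose and Srsf7 fell. Prpf40b, a U1-associated factor, fell among 5 U1 genes, and 0 of 3 U2AF genes were called.

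Snrpd1, an Sm ring protein, ranged from 13.7 to 18.5 CPM in 2% HS (median 17.7) and from 16.8 to 24.8 CPM in SD (median 21.8). The groups overlapped in 1 SD library. The log2 fold change was 0.32 (SE 0.11, adjusted p = 0.0364), and the call was lost when any of 8 libraries (2% HS replicates 3, 5 and 6 or SD replicates 1, 3, 4, 5 and 6) was left out, with a block for the replicate number (adjusted p = 0.0624) and with a filter of more than 5 counts in total (adjusted p = 0.0671). Hnrnpa3, which shuttles with mRNA between nucleus and cytoplasm, ranged from 151 to 161 CPM in 2% HS (median 157) and from 162 to 213 CPM in SD (median 194). Every SD library stood above every 2% HS library, although the highest control and the lowest SD library nearly touched. Its log2 fold change was 0.29 (SE 0.07, adjusted p = 0.00245). Sf3b1 went the other way, with 352 to 373 CPM in 2% HS (median 360) and 315 to 350 CPM in SD (median 345), and the groups did not overlap. It fell by 0.09 on the log2 scale (SE 0.03, adjusted p = 0.0224), a call lost with a GC offset, in a fit of both groups alone and without 2% HS replicate 2, 2% HS replicate 4 or SD replicate 1. Of the other named genes the log2 fold change was 0.27 in Sf3b5, 0.24 in Lsm6 and in Hnrnpul2, 0.23 in Snrpd3, 0.19 in Prpf31, 0.18 in Sf3b6 and in Snrpe, and -0.14 in Prpf40b. Some of these calls were near the threshold: among 40 alternatives the call of Snrpe was lost in 18, of Prpf31 in 7, of Sf3b5 in 5 and of Hnrnpul2 in 2 (without 2% HS replicate 1 or SD replicate 3).

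Groups whose 6 libraries all stood above those of the other were rare in this comparison. In SD all libraries stood above 2% HS for Hnrnpa3, Hnrnpul2 and Sf3b3 and below it for Hnrnpa1 and Sf3b1, that is for 3 and 2 of 80 genes, against 6.17% and 7.42% of all genes. Hnrnpa1, an abundant hnRNP that often represses exons, showed no call (log2 fold change -0.14, SE 0.07, adjusted p = 0.138). The counts of genes called moved with MET+LEU replicate 6, which is not in this comparison but enters the shared estimate of spread: without it 21 were higher and 5 lower, against 15.8% and 15% of all genes. Without 2% HS replicate 2 or without SD replicate 1 a single gene was lower, against about 13% of all genes in each case.

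Metformin or leucine alone gave no splicing factor gene past the threshold with edgeR fitted over all 30 libraries. In MET vs. SD 0 of 80 genes were higher and 0 lower, and the background was 0.0754% higher and 0.0817% lower. At an unadjusted p under 0.05, 15 were higher and 3 lower, against 4.71% and 5.33% of all genes. DESeq2 called 3 higher (Snrpb2, Hnrnpab and Srsf9) against 0.409% of all genes and limma-voom 3 (Hnrnpab, Hnrnpu and Hnrnpa3) against 0.434%, with 0 lower in each. In LEU vs. SD the counts were again 0 and 0, with a background of 0.233% higher and 0.321% lower. At an unadjusted p under 0.05, 7 were higher and 5 lower, against 4.68% and 5.3% of all genes. DESeq2 called 0 in either direction, against 0.553% higher and 0.503% lower of all genes, and limma-voom called 3 higher (Hnrnpab, Hnrnpa3 and Hnrnpm) against 0.836% and 0 lower. When the spread was estimated without MET+LEU replicate 6, 9 genes were higher in MET (Hnrnpa2b1, Hnrnpa3, Hnrnpab, Hnrnpm, Hnrnpu, Hnrnpul2, Snrpb2, Snrpf and Srsf9) and 4 in LEU (Hnrnpa3, Hnrnpab, Hnrnpm and Hnrnpu), with 0 lower in either. These short lists were chosen with their values known, and in that setting 0.692% of all genes were higher and 0.327% lower in MET and 1.02% and 0.635% in LEU.

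The median change from SD was small in both single treatments, although libraries of some genes did not overlap with those of SD. Hnrnpab, an RNA-binding hnRNP of nucleus and cytoplasm, ranged from 179 to 219 CPM in SD (median 206), from 223 to 248 CPM in MET (median 236) and from 223 to 238 CPM in LEU (median 230). All MET and all LEU libraries stood above all SD libraries. The log2 fold changes were 0.21 (SE 0.06, adjusted p = 0.212) in MET vs. SD and 0.17 (SE 0.06, adjusted p = 0.302) in LEU vs. SD. Neither passed the threshold in this edgeR fit over all 30 libraries. Both did when edgeR fitted only the groups compared (adjusted p = 0.0220 and 0.0163). Without MET+LEU replicate 6 the edgeR values were 0.00126 and 0.00484. Snrpb2, the protein that binds U2 RNA with Snrpa1, had 26.7 to 30.95 CPM in MET (median 28.6) against 19.57 to 26.8 CPM in SD (median 23.3), and the groups overlapped narrowly (log2 fold change 0.30, SE 0.07, adjusted p = 0.0686). Libraries did not overlap for 3 genes above SD in MET (Hnrnpab, Hnrnpul1 and Hnrnpul2) and for 2 in LEU (Hnrnpa3 and Hnrnpab), and for none below, where 0.346% and 0.786% of all genes stood above and 0.371% and 0.522% below. The median log2 fold change of the 80 genes was 0.06 in MET and 0.03 in LEU.

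Metformin and leucine together gave the most calls against SD, with hnRNP and Sm transcripts in front. In MET+LEU vs. SD 31 of 80 genes rose and 7 fell, whereas 10.6% of all genes were higher and 7.8% lower. That is 38.8% of the splicing factor genes higher, and 8.75% lower. The median log2 fold change was 0.11 against -0.01 over all genes, with extremes of -0.32 and 0.65, so that all changes were smaller than a doubling. Without MET+LEU replicate 6, 27 genes were higher and 6 lower against 7.86% and 5.73% of all genes, and the median was 0.06. All 27 and all 6 belonged to the 31 and the 7. When only the SD and MET+LEU libraries were fitted, 14 were higher and 2 lower against 5.09% and 3.37%. The markers of cycling or unfused myoblasts moved in the same comparison: 4 of 6 fell and 0 rose, and their summed level was 325 to 368 CPM in SD and 281 to 305 CPM in MET+LEU, with their part in the result not tested. Of 12 myotube markers 5 rose and 0 fell, and of 4 fibroblast or fat cell markers 1 rose and 0 fell.

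**Figure D2:**
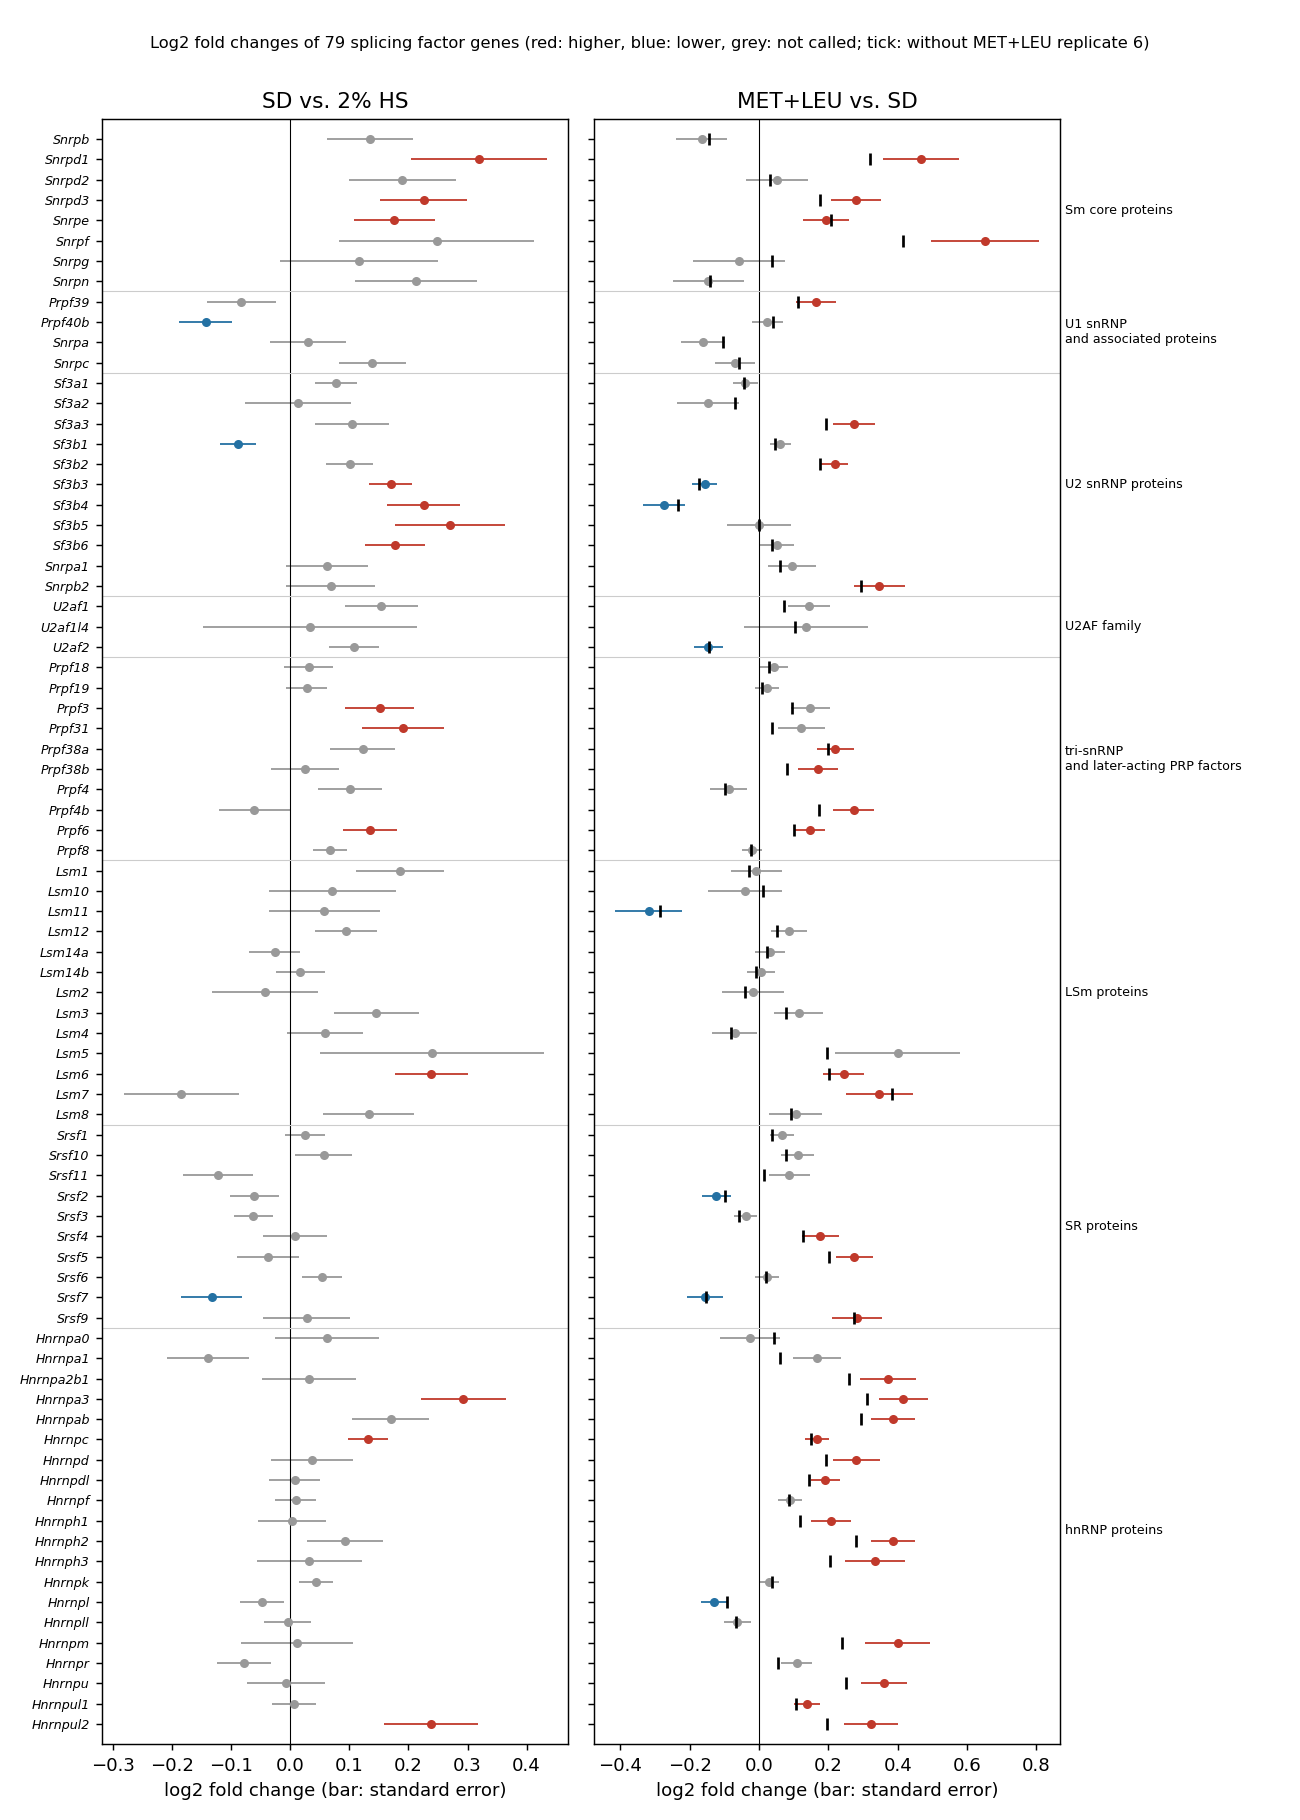
Log2 fold change (dot) and standard error (bar) of each of 79 splicing factor genes tested, ordered by role, in SD vs. 2% HS (left) and MET+LEU vs. SD (right), red where higher, blue where lower and grey where not called. Black ticks give the value without MET+LEU replicate 6 (0.41 instead of 0.65 for Snrpf), and of the 2 panels, which share the SD libraries, Sf3b3 and Sf3b4 are red on the left and blue on the right.

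The hnRNP genes held the largest count. Of 20, 13 rose and 1, Hnrnpl, fell, with a median log2 fold change of 0.20, and 3 of the 13 (Hnrnpa3, Hnrnpc and Hnrnpul2) had also risen in SD vs. 2% HS. Hnrnpa3 ranged from 234 to 345 CPM in MET+LEU (median 236) against 162 to 213 CPM in SD (median 194). Every MET+LEU library stood above every SD library, and replicate 6 was the highest at 345 CPM, with the next at 250 CPM. The log2 fold change was 0.42 (SE 0.07, adjusted p = 0.000156) and 0.31 without replicate 6 (adjusted p = 1.48e-07). Hnrnpab stood at 226 to 349 CPM (median 257), again above all SD libraries, with a log2 fold change of 0.39 (SE 0.06, adjusted p = 0.000106) and 0.29 without replicate 6. Hnrnpu, a nuclear scaffold protein that binds RNA and chromatin, ranged from 386 to 466 CPM in SD (median 436) and from 493 to 754 CPM in MET+LEU (median 518). The groups did not overlap, and the log2 fold change was 0.36 (SE 0.07, adjusted p = 0.000289) or 0.25 without replicate 6.

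Another 3 hnRNP genes were among the 10 highest. Hnrnph2, which binds G-rich runs, stood at 95.9 to 147 CPM in MET+LEU (median 103) and 79.6 to 89.6 CPM in SD (median 81.3), with no overlap and a log2 fold change of 0.39 (SE 0.06, adjusted p = 5.17e-05), or 0.28 without replicate 6. Hnrnpa2b1, relative of Hnrnpa1, had a log2 fold change of 0.37 (SE 0.08, adjusted p = 0.00163), or 0.26 without replicate 6. Its call was lost when only the SD and MET+LEU libraries were fitted. Hnrnpm ranged from 89.5 to 106 CPM in SD (median 97.2) and from 107 to 197 CPM in MET+LEU (median 118), just without overlap. Its log2 fold change of 0.40 (SE 0.09, adjusted p = 0.00347) became 0.24 without replicate 6 (adjusted p = 1.53e-05), a difference made by 1 library. Hnrnpm also lost its call when only the SD and MET+LEU libraries were fitted. Hnrnpl, which binds CA-rich RNA, was 231 to 250 CPM in SD (median 242) and 188 to 237 CPM in MET+LEU (median 224). The groups overlapped, and the gene fell by 0.13 on the log2 scale (SE 0.04, adjusted p = 0.00927), a call lost with a GC offset, with limma-voom and when only the SD and MET+LEU libraries were fitted. The other hnRNP genes that rose were Hnrnph3 (log2 fold change 0.34, and 0.20 without replicate 6), Hnrnpul2 (0.32 and 0.20), Hnrnpd (0.28 and 0.19), Hnrnph1 (0.21 and 0.12), Hnrnpdl (0.19 and 0.14), Hnrnpc (0.17 and 0.15) and Hnrnpul1 (0.14 and 0.11), and all 7 kept their call without it.

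Sm ring genes split into those that rose and those that did not. Snrpf, Snrpd1, Snrpd3 and Snrpe rose and none of the 8 fell. Snrpf ranged from 13.9 to 18.2 CPM in SD (median 14.6) and from 18.5 to 43.6 CPM in MET+LEU (median 21.2). Replicate 6 at 43.6 CPM lay far above the next library at 22.6 CPM, and the groups did not overlap. The log2 fold change was 0.65 (SE 0.16, adjusted p = 0.00417), the highest of the 80, and 0.41 without replicate 6 (adjusted p = 0.000461). Snrpd1 ranged from 22.2 to 45.0 CPM in MET+LEU (median 28.1). Its log2 fold change was 0.47 (SE 0.11, adjusted p = 0.00292), and 0.32 without replicate 6. The value of Snrpd3, 0.28, became 0.18. Both Snrpf and Snrpd1 lost their call when only the SD and MET+LEU libraries were fitted. Snrpb, which shares the ring with them, had 54.3 to 78.7 CPM in SD (median 65.6) and 53.2 to 67.7 CPM in MET+LEU (median 61.0). The ranges overlapped and no call was made (log2 fold change -0.17, SE 0.07, adjusted p = 0.114). Whether Snrpf and Snrpb differ in their change was not tested.

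**Figure D3:**
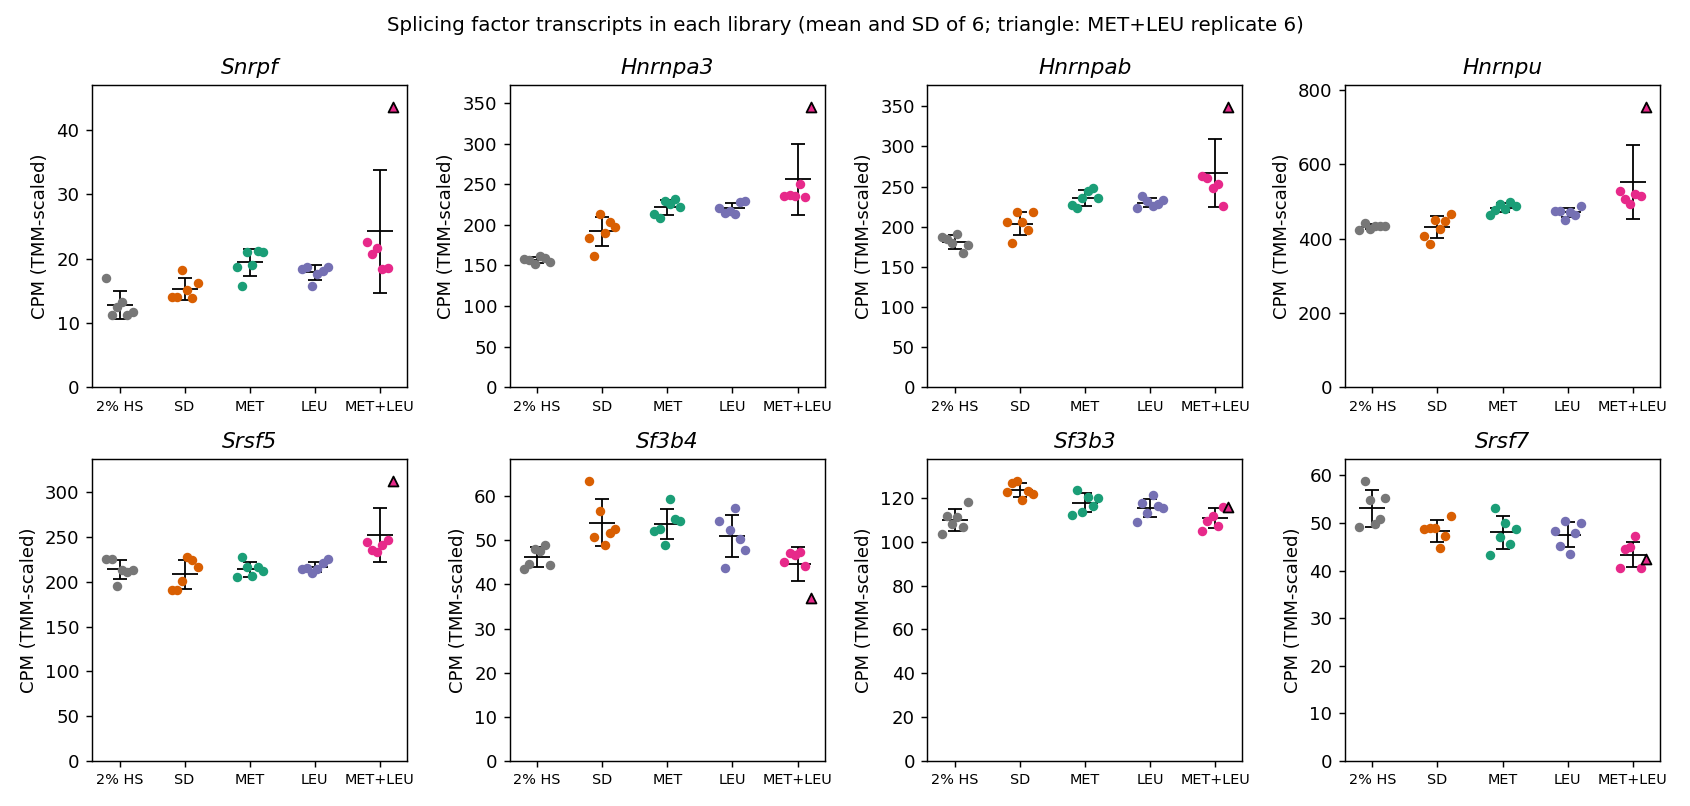
Level in CPM (TMM-scaled) of 8 splicing factor genes in each of the 30 libraries, with the mean and SD of each group of 6, and MET+LEU replicate 6 drawn as a triangle. For Snrpf the triangle stands at 43.6 CPM against 22.6 CPM or less in the other libraries of that group, whereas for Sf3b3 it lies within them.

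In the U2 particle 3 genes rose and 2 fell. Snrpb2, with 25.2 to 35.2 CPM in MET+LEU (median 30.2) against 19.57 to 26.8 CPM in SD (median 23.3), overlapped in a few libraries and rose by 0.35 on the log2 scale (SE 0.07, adjusted p = 0.000573), or by 0.29 without MET+LEU replicate 6. Sf3b2, a branch point protein that binds Sf3b4, had a log2 fold change of 0.22 and Sf3a3, a subunit of SF3A, of 0.27 (0.18 and 0.19 without replicate 6). Sf3b3 and Sf3b4 fell, and both had risen in SD vs. 2% HS. Sf3b4 ranged from 43.4 to 49.0 CPM in 2% HS (median 46.2), from 48.8 to 63.4 CPM in SD (median 52.1) and from 37.0 to 47.3 CPM in MET+LEU (median 45.8). All SD libraries stood above all MET+LEU libraries, and they overlapped the 2% HS range at its upper end. The log2 fold change was 0.23 (SE 0.06, adjusted p = 0.00401) in SD vs. 2% HS and -0.27 (SE 0.06, adjusted p = 0.00118) in MET+LEU vs. SD, or -0.23 in the latter without replicate 6. Sf3b3 ranged from 104 to 118 CPM in 2% HS (median 110), from 119 to 128 CPM in SD (median 123) and from 105 to 116 CPM in MET+LEU (median 111). SD did not overlap with either group, and the log2 fold changes were 0.17 (SE 0.04, adjusted p = 0.000258) and -0.16 (SE 0.04, adjusted p = 0.0016).

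Sf3b3 (chr8:110810239-110846787, minus strand, GRCm38) and Sf3b4 (chr3:96172332-96177564, plus strand) were the only 2 of the 80 genes that were called higher in SD vs. 2% HS and lower in MET+LEU vs. SD. Neither was called in MET+LEU vs. 2% HS (log2 fold changes 0.01 and -0.05, adjusted p = 0.811 and 0.552). The first 2 comparisons share the SD libraries, so their values are not independent. Both genes kept both calls under all 40 alternatives tried for each. Another 8 genes were higher in SD and higher again in MET+LEU (Hnrnpa3, Hnrnpc, Hnrnpul2, Lsm6, Prpf6, Snrpd1, Snrpd3 and Snrpe), and 1, Srsf7, was lower in both. Given in the order serum removal, then both agents, log2 fold changes were 0.29 and 0.42 in Hnrnpa3, 0.13 and 0.17 in Hnrnpc, 0.24 and 0.32 in Hnrnpul2, 0.24 and 0.24 in Lsm6, and 0.13 and 0.15 in Prpf6. For the Sm genes they were 0.32 and 0.47 in Snrpd1, 0.23 and 0.28 in Snrpd3, and 0.18 and 0.19 in Snrpe.

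U1, tri-snRNP and PRP genes moved up where they were called. Of 5 U1 genes 2 rose and none fell. Among 10 tri-snRNP and PRP genes 4 rose: Prpf4b, Prpf38a, Prpf38b and Prpf6. Prpf4b, a kinase that acts on the tri-snRNP, had 76.6 to 90.3 CPM in SD (median 86.8) and 88.6 to 137 CPM in MET+LEU (median 97.7), and the groups overlapped in 1 MET+LEU library. Its log2 fold change was 0.27 (SE 0.06, adjusted p = 0.00122), or 0.17 without replicate 6. Prpf8 showed 407 to 428 CPM in SD and 401 to 427 CPM in MET+LEU, nearly the same range (log2 fold change -0.02, SE 0.03, adjusted p = 0.692).

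SR genes moved in both directions. Srsf5, Srsf9 and Srsf4 rose and Srsf7 and Srsf2 fell among the 10 tested. Srsf5 ranged from 191 to 227 CPM in SD (median 208) and from 233 to 312 CPM in MET+LEU (median 242), without overlap. The log2 fold change was 0.28 (SE 0.05, adjusted p = 0.000302), and without replicate 6 it was 0.20. Srsf9 had 24.4 to 26.6 CPM in MET+LEU (median 24.9), against 16.5 to 24.9 CPM in SD (median 19.8), so that 1 SD library reached into it. Srsf7, an SR protein with a zinc knuckle, ranged from 49.1 to 58.8 CPM in 2% HS (median 52.8), from 44.6 to 51.5 CPM in SD (median 48.9) and from 40.5 to 47.3 CPM in MET+LEU (median 43.5). Neighbouring groups overlapped, and the log2 fold changes were -0.13 (SE 0.05, adjusted p = 0.048) in SD vs. 2% HS and -0.16 (SE 0.05, adjusted p = 0.0307) in MET+LEU vs. SD. Both calls were close to the threshold: among 40 alternatives the first was lost in 19 and the second in 8, of which 6 left out 1 library (SD replicates 1, 2, 3 or 6 or MET+LEU replicates 1 or 5). Srsf2, which binds both C-rich and G-rich exon elements, fell by 0.12 and lost its call without MET+LEU replicate 6 (adjusted p = 0.0896), MET+LEU replicate 2 or SD replicates 1, 2 or 6.

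Few LSm and U2AF genes were called. Lsm7, part of the U6 and mRNA decay rings, ranged from 6.65 to 9.40 CPM in SD (median 7.73) and from 8.51 to 11.3 CPM in MET+LEU (median 10.1). The ranges overlapped, and the log2 fold change was 0.35 (SE 0.10, adjusted p = 0.00869), or 0.38 without MET+LEU replicate 6. Lsm6, another member of those rings, rose as well. Lsm11 works elsewhere, in the U7 particle that processes histone mRNA, and ranged from 11.99 to 19.2 CPM in SD (median 15.7) and from 10.8 to 14.7 CPM in MET+LEU (median 12.5). It fell by 0.32 on the log2 scale (SE 0.10, adjusted p = 0.0153) with overlapping libraries, and the call was lost with limma-voom, when only the 2 groups were fitted and without SD replicate 1. The other 10 LSm genes were not called. U2af2 had 102 to 126 CPM in SD (median 112) and 95.2 to 108 CPM in MET+LEU (median 103), overlapping, and fell by 0.15 (SE 0.04, adjusted p = 0.0119), while U2af1 and U2af1l4 were not called. Without SD replicate 1 only 3 of the 80 genes were lower, against 5.5% of all genes, and Lsm11 and U2af2 were among those lost.

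The position of MET+LEU replicate 6 within its group followed the direction of the calls. It was the highest of 6 for 45 of the 80 genes and the lowest for 12. Of the 31 higher genes it was the highest in 28, and of the 7 lower genes the lowest in 4. Replicate 6 itself entered the calls, so these counts are partly set by the selection. The mean of the other 5 MET+LEU libraries stood above the SD mean for all 31 higher genes, but these libraries also entered the calls, so this is no separate test. All 6 MET+LEU libraries stood above all SD libraries for 12 genes (9 hnRNP genes, Snrpf, Srsf5 and Sf3b2) and below them for 2 (Sf3b3 and Sf3b4), against 3.41% and 1.93% of all genes. Counted only among the 31 and 7 genes called, the numbers were 12 and 2 with replicate 6 and 13 and 2 without it. No share of all genes was counted without replicate 6. The 4 higher genes that lost their call without it were Srsf4, Prpf38b, Prpf6 and Prpf39, and the lower one was Srsf2. The naming of these genes followed from their values.

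The sequence upstream of 4 genes that rose in MET+LEU vs. SD and of 2 that fell is printed so that the sets can be read against each other. They were taken from the highest and lowest called genes that had 1 RefSeq start and a window outside the gene of the annotation. Not every such gene was open to printing, so they are not a strict ranking. Snrpf and Snrpd1, which rose more than Hnrnpa3, and Sf3b4, which fell more than Sf3b3, are not printed. Each run is 150 bases ending just before the start, 5′ to 3′ on the gene's strand, in GRCm38.p6 from RefSeq: chr2:75659109-75659258 on the plus strand for Hnrnpa3, chr11:51606882-51607031 minus for Hnrnpab, chrX:134601029-134601178 plus for Hnrnph2, chr1:178337816-178337965 minus for Hnrnpu, chr11:45944936-45945085 minus for Lsm11 and chr8:110846804-110846953 minus for Sf3b3. Capitals mark the motifs searched on both strands: the CCAAT box (CCAAT), the GC box (GGGCGG), an ETS motif (CCGGAAG) and the TATA box (TATAAA).
Hnrnpa3: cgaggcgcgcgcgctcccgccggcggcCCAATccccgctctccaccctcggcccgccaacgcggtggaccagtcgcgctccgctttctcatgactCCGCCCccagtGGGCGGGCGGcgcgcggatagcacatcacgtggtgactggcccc
Hnrnpab: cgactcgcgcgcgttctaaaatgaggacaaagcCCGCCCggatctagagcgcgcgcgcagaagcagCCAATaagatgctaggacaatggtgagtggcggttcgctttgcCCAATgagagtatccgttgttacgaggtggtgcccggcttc
Hnrnph2: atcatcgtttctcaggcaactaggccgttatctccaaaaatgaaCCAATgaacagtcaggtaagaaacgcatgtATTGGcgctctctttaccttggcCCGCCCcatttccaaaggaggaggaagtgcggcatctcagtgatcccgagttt
Hnrnpu: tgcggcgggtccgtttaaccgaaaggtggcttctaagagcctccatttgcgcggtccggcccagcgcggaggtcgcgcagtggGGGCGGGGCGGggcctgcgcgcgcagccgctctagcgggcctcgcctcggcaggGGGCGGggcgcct
Lsm11: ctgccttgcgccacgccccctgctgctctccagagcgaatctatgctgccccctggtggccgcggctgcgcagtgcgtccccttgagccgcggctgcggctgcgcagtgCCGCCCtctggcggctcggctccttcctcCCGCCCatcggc
Sf3b3: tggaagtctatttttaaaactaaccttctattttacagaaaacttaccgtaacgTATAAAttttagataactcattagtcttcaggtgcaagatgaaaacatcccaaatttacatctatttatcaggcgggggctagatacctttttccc
Hnrnpab and Hnrnph2 each had a pair of CCAAT boxes and a GC box in these bases, Hnrnpa3 had 1 CCAAT box and 3 GC boxes, of which a pair overlap, Hnrnpu had 3 GC boxes, Lsm11 had 2 GC boxes and Sf3b3 had a TATA box. Over the 250 bases before each start, 92 windows of 69 of the 81 genes could be searched. A GC box was found in 63.0% of them against 32.7% of all 32851 windows, an ETS motif in 25% against 6.91%, a CCAAT box in 44.6% against 33.8% and a TATA box in 6.52% against 12.4%. Among the windows of genes higher in MET+LEU vs. SD (37 windows) a GC box was found in 70.3% and a CCAAT box in 43.2%, and among genes not called (49 windows) in 55.1% and 44.9%. The lower genes had 5 windows. These are counts of letters, and all windows include those of genes that code for no protein.

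Against each single treatment the combination gave fewer calls and these depended on the fit. In MET+LEU vs. LEU 20 genes were higher and 1, Srsf2, lower, against a background of 4.61% and 1.67%. Without MET+LEU replicate 6 the counts were 9 and 1 (2.11% and 0.849% of all genes), and without LEU replicate 3, 7 were higher (2.28% of all genes). They were 3 and 1 when only the 2 groups were fitted (1.4% and 0.648%) and 10 and 2 with upper-quartile scaling (2.62% and 2.24%). Among the genes called, Snrpd1, Snrpd3, Hnrnph2, Hnrnpa2b1, Lsm6 and Snrpb2 had the largest log2 fold changes, 0.44, 0.26, 0.27, 0.26, 0.26 and 0.25. Without replicate 6 these were 0.29, 0.15, 0.16, 0.15, 0.21 and 0.19, and Snrpd3, Hnrnpa2b1 and Snrpb2 then had no call. Snrpf had a value of 0.42 (SE 0.15, adjusted p = 0.0962) and was not called. Among 40 alternatives Hnrnpa2b1 lost its call in 29, Snrpb2 in 12 and Snrpd3 in 6. Lsm6 kept its call in every alternative, with 40.2 to 45.7 CPM in LEU (median 43.4) and 46.7 to 59.4 CPM in MET+LEU (median 51.9), no overlap and an adjusted p of 0.00665. Against MET, 8 genes were higher and 1, Sf3b4, lower, against 5.54% and 3.15%. That split was 5 and 1 without replicate 6 (2.83% and 1.83% of all genes), 4 higher without MET replicate 1 (4.22%), and 13 higher and 4 lower without MET+LEU replicate 3 (6.22% and 3.56%). It was 1 and 1 when only the 2 groups were fitted (1.67% and 1.45%), 4 and 5 with upper-quartile scaling (3.97% and 4%) and 6 and 3 with DESeq2 size factors (4.77% and 3.48%). Srsf5 (204.8 to 228 CPM in MET, median 214, no overlap, log2 fold change 0.24, SE 0.05, adjusted p = 0.00459) and Sf3b4 (49.0 to 59.4 CPM in MET, median 53.4, no overlap, -0.27, SE 0.06, adjusted p = 0.0049) kept their calls in all alternatives. Hnrnph2, Snrpd3, Prpf4b and Hnrnph3 had log2 fold changes of 0.26, 0.24, 0.21 and 0.27, with calls lost in 2, 11, 3 and 30 of 40 alternatives. Without replicate 6 the values were 0.15, 0.13, 0.11 and 0.13, and only Hnrnph2 of these 4 kept its call. Libraries did not overlap for 10 genes above and 0 below in MET+LEU vs. LEU (2.73% and 0.861% of all genes) and for 5 above and 1 below in MET+LEU vs. MET (2.48% and 1.28%).

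The interaction asks whether the effect of both agents differs from the sum of their single effects on the log2 scale. With edgeR 0 of the 80 genes were called in either direction, where 0.0377% of all genes were higher and 0.0126% lower. At an unadjusted p under 0.05, 6 were higher and 4 lower, against 5.68% and 3.05% of all genes. DESeq2 also called 0, against 0.151% higher and 0.0251% lower of all genes, and limma-voom 0, against 0.0754% and 0.044%. The log2 value was 0.18 (SE 0.07, adjusted p = 0.457) in Srsf5, -0.18 (SE 0.09, adjusted p = 0.547) in Sf3b4 and 0.01 (SE 0.10, adjusted p = 0.993) in Hnrnpa3. A departure from the sum was therefore not detectable in these genes with 6 libraries a group.

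Myotubes with both agents were also compared with serum-fed myotubes, which MET and LEU alone were not. Of the 80 genes, 44 were higher in MET+LEU vs. 2% HS and 6 lower, against 22.1% and 20.3% of all genes, and without replicate 6 the counts were 42 and 4 against 21% and 19.8%. Log2 fold changes were 0.90 in Snrpf (SE 0.16, adjusted p = 4.62e-05), 0.79 in Snrpd1 (SE 0.11, adjusted p = 1.12e-06), 0.71 in Hnrnpa3 (SE 0.07, adjusted p = 4.45e-09), 0.64 in Lsm5, and 0.56 in Hnrnpab and in Hnrnpul2. Without replicate 6 they were 0.66, 0.64, 0.60, 0.44, 0.47 and 0.44 in that order, and all 6 calls remained. Cell type markers differed too: 4 of 4 fibroblast or fat cell markers were higher with a median log2 fold change of 1.57, 5 of 6 markers of cycling or unfused myoblasts were lower, and of 12 myotube markers 4 were higher and 4 lower. Their part in the result was not tested. Hnrnpa3 rose from a mean of 156 ± 3.59 CPM (SD, n = 6) to 256 ± 43.9 CPM (SD, n = 6), or to a median of 236 CPM in the other 5 libraries. Lsm5, another U6 ring gene, had 2.74 to 3.99 CPM in 2% HS and 3.49 to 8.51 CPM in MET+LEU, the lowest level of these, and its ranges overlapped. For 29 genes all MET+LEU libraries stood above all 2% HS libraries and for 2, Srsf7 and Prpf40b, below, where the shares of all genes were 11.5% and 9.51%. SR genes again pointed both ways, with Srsf1, Srsf4, Srsf5, Srsf9 and Srsf10 higher and Srsf2, Srsf3 and Srsf7 lower.

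Summed over the 81 genes, levels rose in the order 2% HS, SD, LEU, MET and MET+LEU. The sum was 7535 ± 53.3 CPM in 2% HS, 7716 ± 261 in SD, 7855 ± 101 in LEU, 8050 ± 71.2 in MET and 8443 ± 593 in MET+LEU (SD, n = 6 each), and 8203 ± 91.5 CPM in MET+LEU without replicate 6. SD libraries ran from 7310 to 7987 CPM and so overlapped those of LEU (7758 to 7986) and, by a small margin, MET (7965 to 8152), and the ranges of 2% HS and SD and of LEU and MET overlapped as well. The 5 other MET+LEU libraries stood at 8098 to 8311 CPM, above all SD and LEU libraries and overlapping MET. Replicate 6 stood at 9642 CPM, yet its share of raw counts on these genes, 0.774%, was below the 0.794% to 0.810% of the other 5, since CPM also divides by its TMM factor of 0.803. In raw shares SD ran from 0.749% to 0.819% and MET from 0.804% to 0.832%, so that MET and not MET+LEU had the highest shares. hnRNP genes formed the role with the largest sum, with 3280 ± 20.2 CPM in 2% HS, 3360 ± 171 in SD and 3891 ± 401 in MET+LEU (SD, n = 6 each), whereas U2AF genes summed to 150 ± 3.70, 164 ± 13.1 and 158 ± 7.47 CPM.

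**Figure D4:**
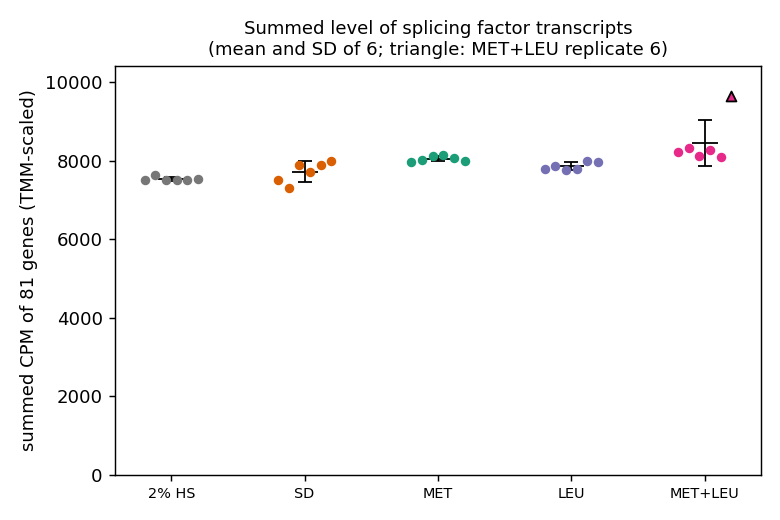
Summed level in CPM (TMM-scaled) of the 81 splicing factor genes in each library, with the mean and SD of each group of 6, and MET+LEU replicate 6 drawn as a triangle at 9642 CPM. The other MET+LEU libraries lie between 8098 and 8311 CPM, above the SD libraries at 7310 to 7987 CPM.

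**Figure D5:**
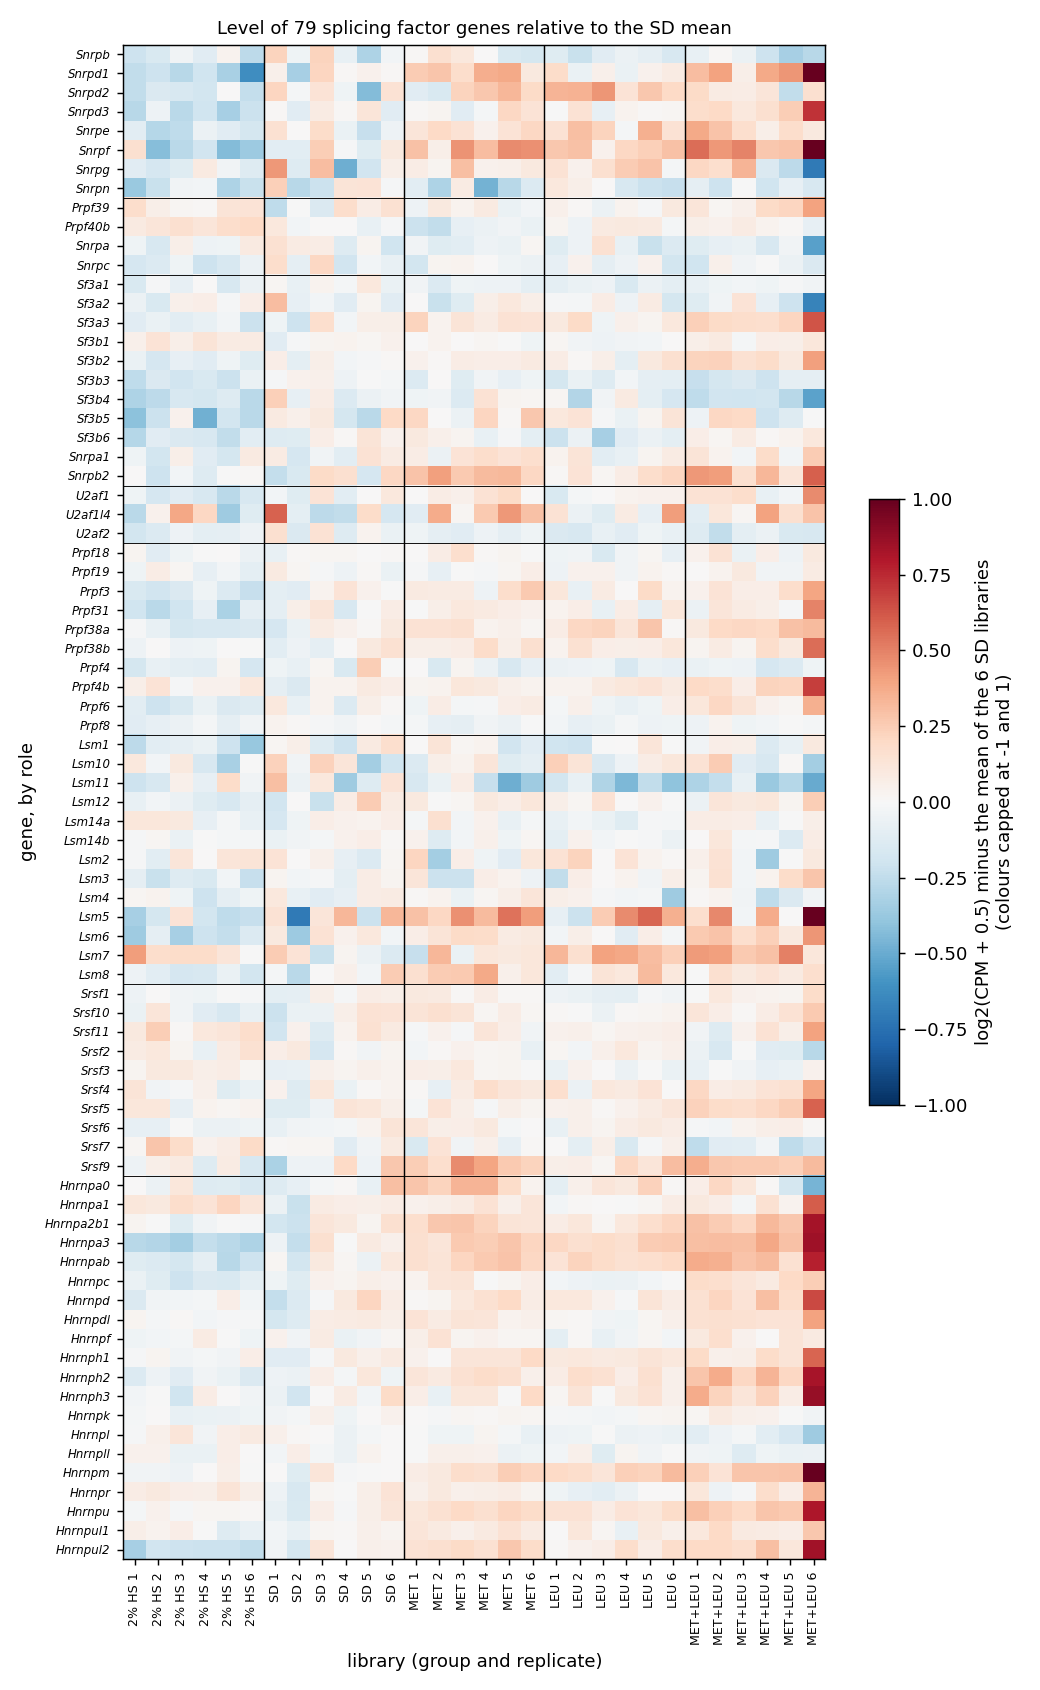
Level of 79 tested genes (rows, by role) in each library (columns, by group and replicate) as log2(CPM + 0.5) minus the mean of the 6 SD libraries, red where higher and blue where lower, with colours capped at -1 and 1. In MET+LEU replicate 6 Hnrnpm, Snrpf, Snrpd1 and Lsm5 pass the red cap, and most hnRNP rows are red in the MET+LEU columns.

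GC content of the exons differed between genes called in different directions. In MET+LEU vs. SD the median was 43.1% in the 31 higher genes, 50.8% in the 7 lower genes and 46.3% in the 42 not called, with ranges that overlapped (37.1% to 55.5% in the higher and 41.6% to 56.2% in the lower). With an offset for GC content 27 were higher and 7 lower against 9.38% and 6.1% of all genes, and 26 of the 31 and 5 of the 7 kept their call. The higher genes that lost it were Hnrnph1, Snrpe, Prpf38a, Prpf38b and Prpf39, and the lower ones Hnrnpl and U2af2, a list made with the values known. In SD vs. 2% HS the medians were 46.7% in the 14 higher, 42.1% in the 3 lower and 46.2% in uncalled genes. Median exon length was 4369 bases in the higher, 4113 in the lower and 3506.5 in the uncalled genes of MET+LEU vs. SD.

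Near-identical pseudogenes can take or give reads. At 95% identity over at least 150 bases, 26 of the 81 genes had a pseudogene transcript of this kind and 55 had none. Hnrnpa3 had 27 and Hnrnpa1 10, but these held 2.68% and 1.91% of the joint counts. Snrpg, an Sm ring gene, was the single case above 10%, at 17.8%, and its values are uncertain. It was not called in SD vs. 2% HS or in MET+LEU vs. SD.

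Splicing genes outside the name rule were more often higher than lower in MET+LEU vs. SD. Of 152 tested genes in 8 lists of other spliceosome proteins, assembly factors and regulators, 46 were higher and 5 lower, with a median log2 fold change of 0.07. That is 30.3% and 3.29%, against 10.6% and 7.8% of all genes, and without MET+LEU replicate 6 the counts were 34 and 3 against 7.86% and 5.73%. In SD vs. 2% HS 20 were higher and 11 lower with a median of 0.03, that is 13.2% and 7.24% against 13.9% each way over all genes, so the higher share was close to the background. With both agents 11 of 28 activation, catalysis and release factors rose and 1 fell, led by Cwc15 (0.75, SE 0.09, adjusted p = 8.80e-07) and Slu7, a second-step factor (0.44). Of 17 tri-snRNP proteins outside the name rule 7 rose, led by Sart1 (0.50) and Ik (0.47), and of 15 U1 and U2 proteins 6 rose and 2 fell, led by Htatsf1 (0.46) and Rbm17 (0.44). Of 10 minor spliceosome proteins 3 rose, including Zrsr1 (0.44) and Zcrb1 (0.30). Of 18 snRNP assembly genes only Phax, the export adaptor of small nuclear RNA (0.20), rose and Gemin5, of the SMN complex (-0.12), fell. Clk1 (0.18) and Srpk2 (0.13), kinases of SR proteins, were the 2 of 9 kinase and import genes that rose, and none fell. Without replicate 6 the counts higher were 11 of 28, 5 of 17, 5 of 15, 2 of 10, 0 of 18 and 1 of 9 in the order given. Cwc15 then stood at 0.62, Slu7 at 0.35, Sart1 at 0.37 and Ik at 0.30. Htatsf1 stood at 0.37, Rbm17 at 0.33, Zrsr1 at 0.31, Zcrb1 at 0.22 and Clk1 at 0.13. Phax, Gemin5 and Srpk2 lost their call (adjusted p = 0.0787, 0.0579 and 0.234).

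Several alternative splicing regulators outside the name rule were lower in SD. Of 40 other alternative splicing regulators 9 fell and 2 rose in SD vs. 2% HS (22.5% and 5%, against 13.9% each way over all genes), led by Rbfox1 (-0.40, SE 0.09, adjusted p = 0.000279) and Celf2 (-0.32, SE 0.04, adjusted p = 2.59e-09). In MET+LEU vs. SD 12 rose and 1 fell (30% and 2.5%, against 10.6% and 7.8% of all genes), with Pnn (0.59) and Khdrbs3 (0.37) the largest. Those counts were 7 and 1 without MET+LEU replicate 6, against 7.86% and 5.73% of all genes, Pnn then stood at 0.34 and Khdrbs3 had no call (adjusted p = 0.101). Srpk3, a kinase of SR proteins in muscle, fell in SD (-0.25). Of 15 exon junction and nonsense-mediated decay genes 5 rose in SD, among them Magoh (0.25) and Rbm8a (0.24), and 4 in MET+LEU, among them Magohb (0.56) and Upf3b (0.40), or 3 without replicate 6, where Magohb stood at 0.45 and Upf3b at 0.22. These are 33.3% and 26.7% of the 15, against 13.9% and 10.6% of all genes. The median log2 fold change of the 15 was 0.09 in SD vs. 2% HS, with 13 positive. In MET+LEU vs. SD it was -0.01, with 7 positive. In SD, Phf5a, of the SF3B complex (0.17), Zmat2 (0.25), Smu1 (0.18), Pdcd7 (0.24), Bud31 (0.24), Syf2 (0.17), Smn1 (0.23) and Phax (0.23) were also higher.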

How the data were processed

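Raw counts per gene were deposited by the authors for 30 libraries of total RNA (ribosomal depletion, stranded, reads of 150 bases from both ends). The submitters' processing notes name cutadapt 1.16, STAR 2.7.6a, featureCounts 1.6.3, DESeq2 1.30.1 and GRCm38, and the annotation release, strand setting and treatment of reads with several matches are not given in the sources used here. Doses and days come from the study's methods. Symbols and coordinates were taken from GENCODE M21, in which 260 identifiers had no match.

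Genes with at least 10 counts in enough libraries of a group and 15 in total (filterByExpr) were fitted over all 30 libraries with edgeR 4.0.16 (R 4.3.3; TMM, robust quasi-likelihood F test), and adjusted p-values are Benjamini-Hochberg values over the 15907 genes tested, called under 0.05. Standard errors are the log2 fold change divided by the square root of F. Levels per kilobase use the joined exons of a gene. Libraries were grouped by their labels. The members and lists were chosen with earlier results of these data known. Named members are the 10 largest called changes each way in SD vs. 2% HS and MET+LEU vs. SD, the 6 largest in each other comparison and the highest per kilobase in each role, and in each other list the 2 largest; others named are examples chosen with values known. No library pair within a group agreed within sampling noise (lowest chi-square per degree of freedom 2.65). Library totals limit precision for low genes, as 10 counts correspond to less than 1 CPM.

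Alternatives were DESeq2 size factors, upper-quartile scaling, the DESeq2 1.42.0 Wald test, limma-voom 3.58.1 with quality weights, looser and stricter count filters, a fit of the compared groups alone, a block for the replicate number, an adjusted p under 0.01, an offset for GC content and leaving out each library. The GC offset without MET+LEU replicate 6 was added after seeing the data. Same-numbered libraries deviated together little (mean correlation 0.0157 over 60 pairs, against -0.00314 for different numbers), so numbers were not used as pairs. Tested on simulated data for MET+LEU vs. SD with 200 of 15907 genes changed 1.5-fold, edgeR recovered 189 with 7 false calls, DESeq2 191 with 12 and limma-voom 189 with 9. Changes were planted only in genes of higher counts, and no simulated library stood apart as MET+LEU replicate 6 does. The planted genes had a median log2 fold change of 0.57 with edgeR, above all 80 splicing factor genes but Snrpf in MET+LEU vs. SD. Recovery of smaller changes was not simulated. Promoters were taken from RefSeq (GRCm38.p6). The values of 1 gene are not reported here on their own, and it is left out of the plots by gene.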

Additional observations from a re-analysis of the deposited data

Results flagged for a closer look

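In each group of 6 libraries, the gap between an extreme library and its nearest neighbour was divided by the range of the group and set against Dixon's critical value for groups of this size. The values tested were those of the named members and their summed level over all members. Many of these genes were named for large changes in comparisons that include MET+LEU replicate 6. Of 175 groups of values tested, 24 exceeded it, and 18 of the 24 were MET+LEU replicate 6. The critical value is set for 1 in 20 independent groups. These groups share libraries and were partly chosen by their values, so it gives no chance rate here.

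In the hnRNP genes this library was the highest at a ratio of 0.852 in Hnrnpa3, 0.785 in Hnrnpul2, 0.865 in Hnrnpm (197 CPM against 119 CPM in the next library), 0.698 in Hnrnpab, 0.78 in Hnrnph2, 0.844 in Hnrnpa2b1, 0.865 in Hnrnpu and 0.689 in Hnrnph3. Among Sm genes the ratio was 0.695 in Snrpd1, 0.808 in Snrpd3 and 0.834 in Snrpf. It was 0.829 in Srsf5, 0.785 in Prpf4b, 0.714 in Prpf31 and 0.661 in Lsm5, also as the highest library. MET+LEU replicate 6 was the lowest at 0.702 in Sf3b4 and 0.724 in Snrpa. For the summed level of the splicing factor genes it was the highest at 0.862. Its high share of ribosomal RNA and low TMM factor moved with these values, and their part was not tested.

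Elsewhere, 2% HS replicate 6 was lowest in Snrpd1 (0.677), 2% HS replicate 1 highest in Snrpf (0.641), 2% HS replicate 3 highest in Lsm5 (0.714), SD replicate 2 lowest in Lsm6 (0.626) and MET replicate 5 highest in Hnrnpul2 (0.66). For the summed level 2% HS replicate 2 was highest (0.755), at 7641 CPM against 7537 CPM in the next library.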

How the results depend on the processing

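Of 49 results for named genes, 24 kept their direction and call in the 40 alternatives at an adjusted p under 0.05, of which 22 also passed 0.01, the others lost the call in at least 1, and 0 reversed. Counts are of the 80 splicing factor genes, with the share of all genes called the same way in brackets. The cause of each shift was not tested. With DESeq2 size factors 2 were lower in MET+LEU vs. LEU (1.85%) and 3 in MET+LEU vs. MET (3.48%). With upper-quartile scaling 10 were higher and 2 lower against LEU (2.62% and 2.24%), and 4 higher and 5 lower against MET (3.97% and 4%). The DESeq2 Wald test gave 3 higher in MET vs. SD (0.409%), 2 lower in MET+LEU vs. LEU (2.68%) and 6 lower in MET+LEU vs. MET (4.31%). With limma-voom 3 were higher in MET vs. SD (0.434%) and 3 higher in LEU vs. SD (0.836%). It gave 2 lower in MET+LEU vs. SD (4.37%) and 3 lower in MET+LEU vs. MET (2.9%). The median interaction with it was -0.00364 on the log2 scale. With more than 5 counts in total 1 was lower in SD vs. 2% HS (7.97%) and 2 higher in MET vs. SD (0.0769%). That filter gave 13 higher in MET+LEU vs. LEU (1.84%) and 4 higher in MET+LEU vs. MET (2.32%). With at least 10 counts in every library 2 were lower in MET+LEU vs. LEU (2.41%) and 4 in MET+LEU vs. MET (4.22%). Fitting only the groups compared gave 1 higher in MET vs. SD (0.138%) and 3 higher in LEU vs. SD (0.811%). It gave 14 higher and 2 lower in MET+LEU vs. SD (5.09% and 3.37%), 3 higher in MET+LEU vs. LEU (1.4%) and 1 higher in MET+LEU vs. MET (1.67%). With the GC offset 1 was lower in SD vs. 2% HS (15%) and 1 higher in MET vs. SD (0.163%). This offset gave 13 higher and 2 lower in MET+LEU vs. LEU (3.55% and 1.02%) and 4 lower in MET+LEU vs. MET (3.16%). With the GC offset and without MET+LEU replicate 6, 26 were higher in SD vs. 2% HS (16.3%). The higher counts were then 8 in MET vs. SD (0.817%), 6 in LEU vs. SD (1.42%) and 7 in MET+LEU vs. LEU (1.98%). Against MET, 4 were higher and 4 lower in MET+LEU (3.19% and 2.15%). Median log2 fold changes in this setting were 0.0465 in MET+LEU vs. SD, with 0.13 in MET+LEU vs. 2% HS. They were 0.0275 in MET+LEU vs. LEU, -0.000583 in MET+LEU vs. MET and -0.00805 for the interaction. At an adjusted p under 0.01 there were 6 higher and 0 lower in SD vs. 2% HS, 3 lower in MET+LEU vs. SD, 3 lower in MET+LEU vs. 2% HS, 5 higher and 0 lower in MET+LEU vs. LEU and 3 higher in MET+LEU vs. MET. For that threshold no share of all genes was counted.

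The replicate block gave 2 higher in MET vs. SD (Snrpb2 and Srsf9), against 0.176% of all genes. It gave 2 lower in MET+LEU vs. LEU (1.88% of all genes) and 2 lower in MET+LEU vs. MET (3.67%). In MET+LEU vs. SD 31 were higher and 7 lower (11.1% and 8.47%). Among the named genes Snrpd1 and Snrpe in SD vs. 2% HS lost their call (adjusted p = 0.0624 and 0.0505). Libraries with the same number showed little shared deviation, with correlations from -0.0913 to 0.142. Of 30 libraries 9 matched their own number best. The count that unpaired libraries would give was not worked out, so this count does not decide whether numbers pair.

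Leaving out 1 library at a time moved the counts, and the range over all genes is in brackets. In SD vs. 2% HS 10 to 21 were higher (12.3% to 15.8%) and 1 to 5 lower (12.3% to 15%). In MET vs. SD 0 to 9 were higher (0.0126% to 0.692%) and in LEU vs. SD 0 to 4 (0.113% to 1.02%). In MET+LEU vs. SD 26 to 34 were higher (7.86% to 11.2%) and 3 to 8 lower (5.5% to 8.61%). In MET+LEU vs. 2% HS 39 to 44 were higher (20.2% to 22.4%) and 4 to 7 lower (18.9% to 20.6%). In MET+LEU vs. LEU 7 to 25 were higher (2.11% to 5.8%) and 1 to 2 lower (0.591% to 2.33%). In MET+LEU vs. MET 4 to 13 were higher (2.83% to 6.22%) and 1 to 4 lower (1.83% to 3.72%). Median log2 fold changes of MET+LEU were 0.0612 to 0.12 against SD, 0.13 to 0.18 against 2% HS, 0.0404 to 0.11 against LEU and 0.01 to 0.05 against MET. The median interaction ran from -0.00811 to 0.0475. In low genes such as Lsm5 and U2af1l4 depth limits what can be called.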
